A study of Mus musculus with 2 samples.

Results

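The IL-6 family and colony-stimulating cytokines were examined as 8 genes. These were the cytokine genes Lif, Il6 and Il11, the colony-stimulating factor genes Csf1, Csf2 and Csf3, the shared receptor chain Il6st and the feedback inhibitor Socs3. They were read by every probe, other than control probes, that carried 1 of these gene names, which gave 10 of 39429 probes and 28 of 43020 spots. The whole array represented 28312 genes. Immortalized mouse embryonic fibroblasts of 1 line (background C57BL/6 x B6:129 Ola) carried a Rosa26 ERT2 Cre, a recombinase that tamoxifen switches on, and floxed THOC5 alleles (THOC5 (flox/flox)). Control cells had both alleles and the Cre but received no tamoxifen, and the labels call them wildtype. THOC5-depleted cells, labelled THOC5 knockdown, came from the same line after 2 days with tamoxifen by the labels, where the methods give 24 h of tamoxifen and 24 h of growth medium, so that loss of THOC5 and exposure to tamoxifen cannot be told apart. THOC5 is a subunit of the THO complex, which couples transcription to the processing and export of mRNA. On each array, unstimulated cells were labelled with Cy3 and cells given serum for 1 h with Cy5. The serum ratio used throughout is the Cy5 over the Cy3 processed signal of a probe, and processed signals are not scaled between the arrays unless so stated. There was 1 array per condition and no exchange of the dyes, so no test between conditions was possible, and precision is limited by there being so few arrays.

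The IL-6 family comprises secreted cytokines that signal through a common receptor chain, gp130, which Il6st encodes. Binding brings receptor chains together, JAK kinases bound to them phosphorylate the transcription factor STAT3, and STAT3 induces Socs3, whose product switches the receptor off. The colony-stimulating factors drive the growth and maturation of macrophages and granulocytes, and fibroblasts are a known source of them. Many of their mRNAs are short-lived, are rapidly induced by serum or inflammation, and carry AU-rich elements, built around the pentamer ATTTA, that recruit mRNA decay factors.

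The scanner software called all 10 probes above background in all 4 channels, and no spot was saturated. The margin was small for Csf3 and Csf2, at 19.7 and 27.3 in unstimulated THOC5-depleted cells, where the lowest signal called above background was 11.2. For a probe printed once, the technical SD was taken from probes printed as 10 spots at a like signal. The median SD of their log2 serum ratio was 0.16 on the control array where the lower of both signals was under 50, and 0.021 where it was over 1000. The corresponding values on the THOC5-depleted array were 0.17 and 0.020. This spread covers error within an array only. Thoc5, the check of the labels, was 7.10-fold lower in unstimulated and 5.39-fold lower in stimulated THOC5-depleted cells after scaling between the arrays. All 12 fibroblast markers examined were above background, with a summed scaled signal in unstimulated cells of 567160 on the control and 508918 on the THOC5-depleted array. Of these, Pdgfra was 2.42-fold and Col3a1 2.18-fold lower in unstimulated THOC5-depleted cells, and their part in the cytokine results was not tested. Of the 8 macrophage markers on the array, 6 were above background in some channel, with Itgam brightest and Lyz2 and Cx3cr1 below background in all 4 channels. The summed scaled signal of the macrophage list was 6549 and 8291 in unstimulated and stimulated control cells and 9263 and 10633 in THOC5-depleted cells. Itgam made up most of this sum, and its part was not tested either. Above background were also 3 of 5 endothelial, 4 of 5 epithelial and 1 of 5 lymphocyte markers, with summed signals up to 1037, 213 and 281. Single markers differed between the arrays within these sums. The epithelial marker Epcam had processed signals of 32.1 and 32.7 in unstimulated and stimulated control cells and was not above background in THOC5-depleted cells. The macrophage marker Cd68 was not above background in control cells and had 24.6 and 26.0 in THOC5-depleted cells. Fewer producing cells and less RNA per cell cannot be told apart here.

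The stretch in front of the transcription start was examined because 6 of the genes were induced on the control array. It is shown for Lif, Il11 and Il6, which held a match to the AP-1 motif named below, and for Socs3, whose response differs. RefSeq promoter entries (build GRCm38.p6) were matched for 7 of the 8 genes, as 8 entries, and the 250 bases before the start were searched on both strands. The motifs were AP-1 (TGANTCA), the cyclic AMP response element (TGACGTCA), the STAT motif (TTCNNNGAA), the kappaB motif and the CArG box of serum response factor. In the sequences below, given 5′ to 3′ in the direction of the gene, capitals mark matches to the AP-1, STAT or kappaB motif, none of which overlap. The windows are chr11:4257318-4257567 (plus strand) for Lif, chr7:4778142-4778391 (minus strand) for Il11, chr5:30012864-30013113 (plus strand) for Il6 and chr11:117969367-117969616 (minus strand) for Socs3.
Lif: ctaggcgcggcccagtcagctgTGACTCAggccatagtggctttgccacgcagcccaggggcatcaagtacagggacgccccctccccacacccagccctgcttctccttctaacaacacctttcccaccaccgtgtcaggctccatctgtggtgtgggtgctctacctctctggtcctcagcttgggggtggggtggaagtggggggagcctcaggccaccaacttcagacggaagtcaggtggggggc
Il11: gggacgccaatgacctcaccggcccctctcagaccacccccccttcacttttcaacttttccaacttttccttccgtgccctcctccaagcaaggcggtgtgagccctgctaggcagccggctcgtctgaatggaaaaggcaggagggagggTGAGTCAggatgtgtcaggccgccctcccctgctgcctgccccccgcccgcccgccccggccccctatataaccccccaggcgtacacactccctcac
Il6: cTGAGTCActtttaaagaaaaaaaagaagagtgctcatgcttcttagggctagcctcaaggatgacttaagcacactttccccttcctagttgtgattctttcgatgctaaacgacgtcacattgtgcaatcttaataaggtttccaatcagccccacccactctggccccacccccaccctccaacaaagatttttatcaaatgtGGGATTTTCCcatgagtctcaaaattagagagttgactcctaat
Socs3: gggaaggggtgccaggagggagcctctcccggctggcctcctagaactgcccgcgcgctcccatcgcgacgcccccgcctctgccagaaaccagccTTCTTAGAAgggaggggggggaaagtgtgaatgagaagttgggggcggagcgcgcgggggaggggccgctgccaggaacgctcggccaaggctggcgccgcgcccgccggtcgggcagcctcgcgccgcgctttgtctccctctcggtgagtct

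AP-1 matches were thus found in 3 of the 7 genes with an entry, Lif (starting 228 bases before the start), Il11 (98 bases) and Il6 (249 bases). Of all 32851 promoter entries, 6.75% held this motif in the same window. The other Il11 entry held none. A kappaB match was found in Il6 (44 bases before the start) and Csf1 (154 bases), and 3.90% of all entries held one. The Socs3 window held the only STAT match, 154 bases before the start, against 7.02% of all entries. No window of a member held the cyclic AMP response element or the CArG box, which 1.55% and 1.47% of all entries held. The windows of Il6st and of Csf2, the member with the highest control ratio, held none of the motifs, and Csf3 had no entry. These are matches of letters in a short window and not sites of binding.

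The 60-base probes themselves lie in the transcripts, and 3 of the 10 held the pentamer ATTTA, against 8.01% of 39429 probes. The Lif probe held 2 copies, as 0.533% of all probes did with 2 or more. For these 3 probes a stretch of 30 bases that ends with a pentamer is given, with pentamers in capitals, to show where the array reads one.
Lif: agaagcaaaggggcctttATTTAttATTTA
Il11: cagtgtcttcctcacttcctacattATTTA
Csf3: gggggacaagacatccctgtttaatATTTA

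Among the 3 cytokines of the IL-6 family, Lif and Il11 were strongly induced by serum in control cells and less so in THOC5-depleted cells, and Il6 was weakly induced. Lif, which keeps embryonic stem cells undifferentiated and acts on many tissues, was read at chr11:4172032-4172091 (mm9). Its processed signal was 429 in unstimulated and 5847 in stimulated control cells, and 203 and 961 in THOC5-depleted cells. The stimulated control sample was thus far above the other 3. Its serum ratio of 13.6 (log2 3.77, technical SD 0.030) fell to 4.74 (log2 2.25, technical SD 0.033), a fold reduction of 2.87.

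Il11, a cytokine of platelet formation and of stromal and fibrotic responses, was read at chr7:4724847-4724906 (mm9). Its signal rose from 150 to 2027 in control cells and from 105 to 272 in THOC5-depleted cells. Il11 and Lif were induced by nearly the same factor in control cells, but by different factors in THOC5-depleted cells. The serum ratio of Il11 was 13.6 (log2 3.76, technical SD 0.067) in control and 2.58 (log2 1.37, technical SD 0.069) in THOC5-depleted cells, a fold reduction of 5.25. The log2 fold reduction was 2.39 for Il11 and 1.52 for Lif, with technical SDs of 0.096 and 0.045.

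Il6, the acute-phase cytokine that names the family, behaved unlike both. Its probe at chr5:30346367-30346426 (mm9) gave 112 unstimulated and 249 stimulated in control cells, and 277 and 453 in THOC5-depleted cells. Both THOC5-depleted signals were above both control signals. The serum ratio was 2.22 in control and 1.63 in THOC5-depleted cells, a fold reduction of 1.36 (log2 0.44, technical SD 0.075).

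**Figure D1:**
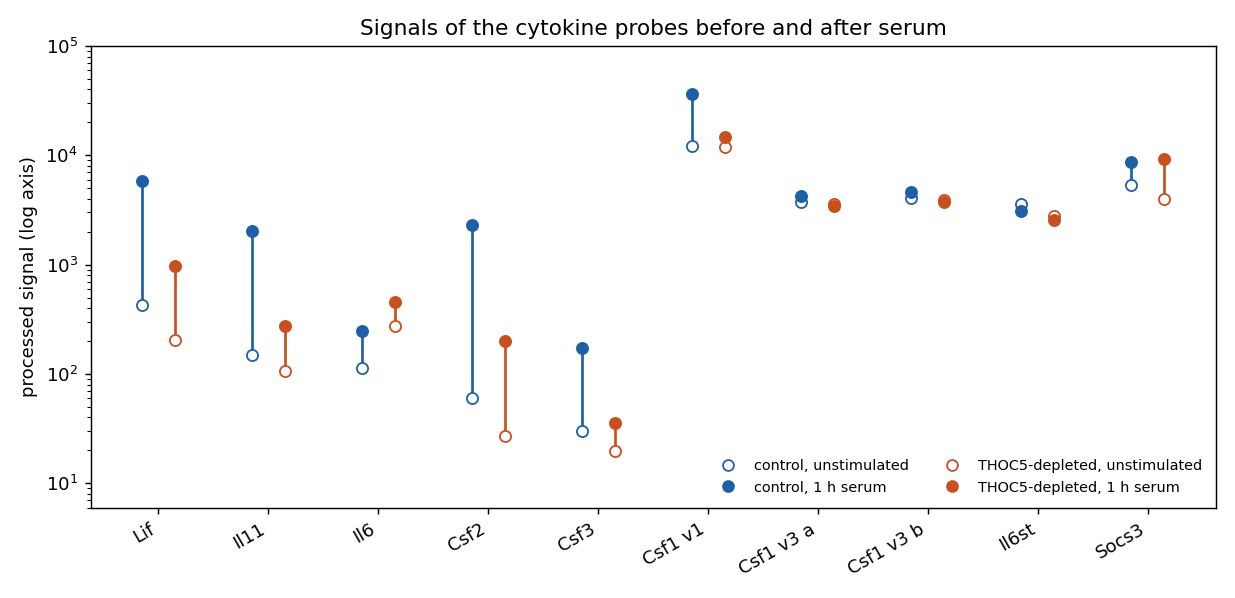
Processed signal (log axis) of each of the 10 probes in unstimulated cells (open circles) and after 1 h of serum (filled circles), for control (blue) and THOC5-depleted cells (orange); v1 and v3 mark the transcript variants of Csf1, and each point is 1 array channel. The filled blue points of Lif, Il11, Csf2 and Csf3 stand well above the filled orange points, whereas both orange points of Il6 lie above both blue ones.

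Among the colony-stimulating factors, Csf2 and Csf3 showed steep responses from low starting signals, and Csf1 a smaller response from a high one. Csf2 encodes GM-CSF, which acts on granulocytes and macrophages. It was printed as 10 spots, and the deposited position of its probe, chr11:54060772-54060799 (mm9), covers 28 bases. After removal of outlier spots, 9 spots on the control and 8 on the THOC5-depleted array remained. In control cells the spots ran from 55.1 to 64.6 unstimulated and from 2201 to 2381 stimulated. In THOC5-depleted cells they ran from 23.8 to 29.8 and from 190 to 211. No spot ranges of the 4 channels overlapped. Spots are repeats within an array, and these signals are not scaled between the arrays. The serum ratio of Csf2 was 38.5 in control cells (log2 5.27 ± 0.086, SD over spots) and 7.36 in THOC5-depleted cells (log2 2.88 ± 0.082). Normexp and loess gave log2 4.50 and 1.79, and a floor of 50 on every signal gave log2 2.01 in THOC5-depleted cells. For Csf2 the fold reduction was 5.23. It depended on the processing, with log2 values of 1.08 when the log ratios of both arrays were set to 1 spread and 3.26 with the floor of 50, compared with 1.58 and 2.39 for Il11.

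Csf3 encodes G-CSF, the growth factor of neutrophils, and was the dimmest member (chr11:98564614-98564673, mm9). It gave 30.02 and 173 in control cells and 19.7 and 35.5 in THOC5-depleted cells. Only the stimulated control sample stood clearly above the rest. The ratio was 5.76 in control (log2 2.53) and 1.80 in THOC5-depleted cells (log2 0.85), and the fold reduction of 3.20 (log2 1.68) had the largest technical SD among members, 0.23. With every signal raised to a floor of 50, the ratio of Csf3 in THOC5-depleted cells was 1.00, since both signals lie below that floor, and its log2 ratio in control cells was 1.79. After normexp and loess the log2 control ratio was 1.59.

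Csf1, the growth factor on which macrophages depend, was read by 3 probes for 2 transcript variants. The variant 1 probe (chr3:107544333-107544392, mm9, 10 spots) gave mean signals of 12045 and 36253 in control cells and 11859 and 14639 in THOC5-depleted cells. The stimulated control spots, from 35001 to 37375, were all above the stimulated THOC5-depleted spots, from 13986 to 14941, whereas the unstimulated ranges overlapped. These ranges too are of repeats within an array and are not scaled between the arrays. The serum ratio was 3.01 (log2 1.59 ± 0.033, SD over 10 spots) in control and 1.23 (log2 0.30 ± 0.0086) in THOC5-depleted cells, a fold reduction of 2.44.

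The variant 3 probes of Csf1 hardly responded to serum on either array. They lie 4128 bases upstream of the variant 1 probe along the gene, which runs on the minus strand, at chr3:107548550-107548609 and chr3:107548521-107548580 (mm9). They share 31 bases and are not independent of each other. The first gave 3727 and 4258 in control and 3556 and 3405 in THOC5-depleted cells, and the second gave 4057 and 4567 in control and 3902 and 3716 in THOC5-depleted cells. Their fold reductions were 1.19 and 1.18 (log2 0.25 and 0.24, technical SD 0.029). A further probe that the array describes as Csf1 but lists under a transcript identifier was below background in all 4 channels and was not a member. The stretches read by the variant 1 probe and the first variant 3 probe, of which the first 30 bases are shown, differ as follows.
Variant 1: tgtggggcttacttagccttctggttacag
Variant 3: cgtgcagattaagatcacattagttttaac

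**Figure D2:**
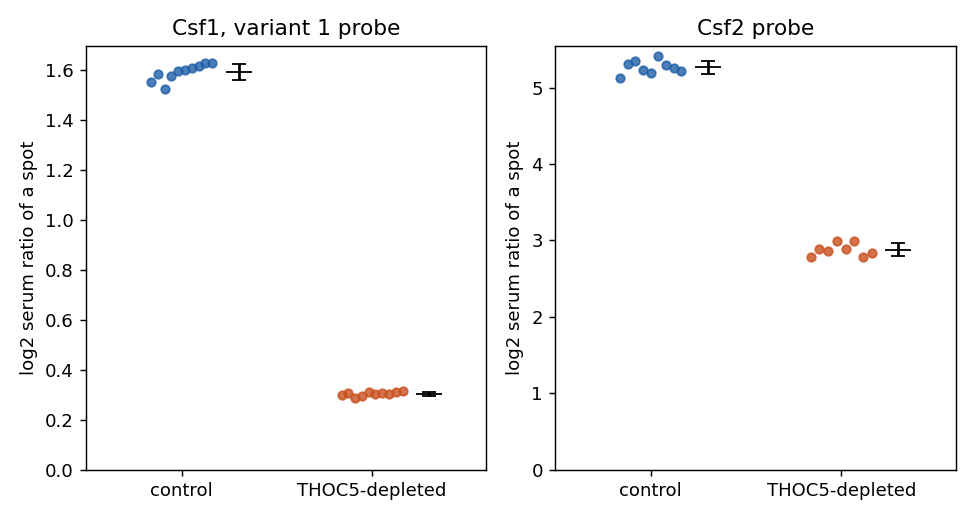
Log2 serum ratio of each spot of the variant 1 probe of Csf1 (left) and of the Csf2 probe (right) on the control and the THOC5-depleted array; the horizontal mark and bar are mean ± SD over spots, which show technical spread only. The spots of the arrays do not overlap for either probe, with means of 1.59 and 0.30 for Csf1 and 5.27 and 2.88 for Csf2.

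The receptor chain and the inhibitor did not follow the cytokines. Il6st, which encodes gp130 (chr13:113296586-113296645, mm9), gave 3614 and 3079 in control and 2809 and 2540 in THOC5-depleted cells. Its serum ratio was slightly under 1 on both arrays, at 0.852 and 0.904. Socs3 (chr11:117827480-117827539, mm9), the inhibitor that STAT3 induces, gave 5323 and 8750 in control and 3983 and 9314 in THOC5-depleted cells. It was the only member whose serum ratio was clearly higher in THOC5-depleted cells, at 2.34 (log2 1.23, technical SD 0.020), than in control cells, at 1.64 (log2 0.72, technical SD 0.021). The ratio was thus 1.42-fold higher, under the limit of 2.

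Counted with a limit of 2-fold, 6 of 8 members were induced in control cells (Lif, Il6, Il11, Csf1, Csf2 and Csf3), compared with 2.65% of 18814 genes tested. In THOC5-depleted cells 4 of 8 were induced (Lif, Il11, Csf2 and Socs3), compared with 0.942% of 18574 genes. The serum ratio was at least 2-fold lower in THOC5-depleted cells for 5 of 8 members (Lif, Il11, Csf1, Csf2 and Csf3), compared with 1.28% of 18046 genes. As 2.65% of genes were induced in control cells, this share is taken mostly over genes not induced there. Past a ratio above 4 and a Cy5 signal above 200, which are 2 of the filters in the study's methods, were Lif, Il11 and Csf2, which is 3 of 8 members and 0.494% of 18814 genes. Csf3 met the ratio but not the signal. Il6 was under the limit in control cells after normexp and loess (log2 0.92) and with log ratios set to 1 spread (log2 0.98). Csf1 met neither the limit for induction nor that for a lower ratio by its dimmest probe (log2 0.19 and 0.25) or by the median of its 3 probes.

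The median log2 serum ratio of the members was 2.06 on the control and 1.04 on the THOC5-depleted array, compared with -0.021 and -0.014 over all genes tested. Their median log2 fold reduction was 1.40, compared with -0.0079 over all genes. In order of control ratio among 18814 genes, Csf2 had rank 5, Lif 16, Il11 17, Csf3 69, Csf1 219, Il6 407, Socs3 912 and Il6st 14411. Lif and Il11 were neighbours whose control ratios did not differ beyond their technical SD. In order of fold reduction among 18046 genes, Il11 had rank 13 and Csf2 rank 14, and these also did not differ beyond it in the processing used here. Log ratios were spread more widely on the control array than on the other (scaled median absolute deviation 0.29 against 0.21), and with both set to 1 spread 3 of 8 members, Il11, Csf2 and Csf3, kept a ratio at least 2-fold lower. Lif then had a fold reduction of 1.47 and the log2 value of Csf1 was 0.99.

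**Figure D3:**
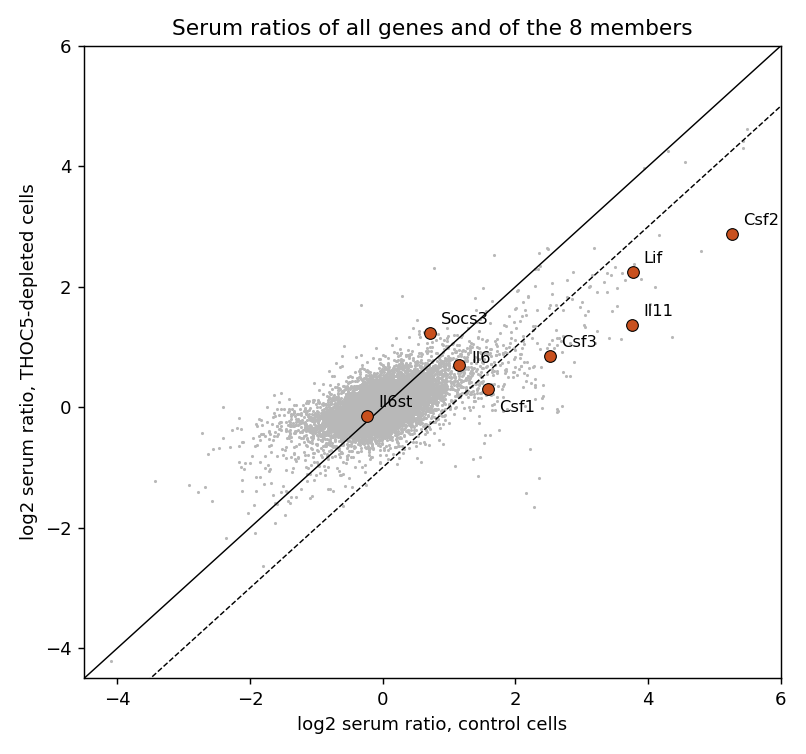
Log2 serum ratio in THOC5-depleted cells against that in control cells for 18046 genes (grey) and the brightest probe of each of the 8 members (orange); the solid line marks equal ratios and the dashed line a ratio 2-fold lower in THOC5-depleted cells. Csf2, Lif, Il11, Csf3 and Csf1 lie below the dashed line and Socs3 lies above the solid line.

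A serum ratio can be lower because the stimulated signal is lower or because the unstimulated signal is higher, so both were compared between the arrays after quantile normalization of the mean signals (Aquantile). For Lif, Il11, Csf2 and Csf3 both signals were lower in THOC5-depleted cells, the stimulated one by more. In stimulated THOC5-depleted cells Csf2 was 9.99-fold lower, Il11 6.29-fold, Lif 4.99-fold and Csf3 4.38-fold (log2 -2.13). After normexp, loess and Aquantile the log2 difference of Csf3 was -1.47. In unstimulated THOC5-depleted cells the same genes were 1.91-fold (Csf2), 1.20-fold (Il11), 1.74-fold (Lif) and 1.37-fold (Csf3) lower. These unstimulated differences are under the limit of 2, but they vary with the processing. Without scaling between the arrays Csf2 had log2 -1.12 and Lif log2 -1.08, both past the limit, but the median of all genes was then log2 -0.26. After normexp, loess and Aquantile the values were log2 -0.39 for Csf2 and log2 -0.69 for Lif.

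Csf1 was 2.02-fold lower when stimulated by its variant 1 probe, and 1.21-fold higher when unstimulated. Its variant 3 probes gave stimulated signals that were 1.01-fold and 1.02-fold higher. Il6 was 2.90-fold higher in unstimulated and 2.14-fold higher in stimulated THOC5-depleted cells, so that its lower ratio came with a higher, not a lower, stimulated signal. Its rise with serum, the stimulated minus the unstimulated scaled signal, was 127 on the control and 191 on the THOC5-depleted array. The same rise for Lif was 4871 and 831.

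Socs3 was 1.07-fold lower when unstimulated and 1.34-fold higher when stimulated, and Il6st was 1.04-fold lower and 1.02-fold higher. The stimulated signal was at least 2-fold lower for 5 of 8 members, compared with 3.11% of 18706 genes, and at least 2-fold higher for Il6 alone, compared with 3.57%. The stimulated difference of Il6 was under 2-fold after normexp, loess and Aquantile (log2 0.93). It was also under 2-fold without scaling (log2 0.86), where the median of all genes was log2 -0.25. The unstimulated signal was at least 2-fold lower for 0 of 8 members, compared with 3.25% of 19089 genes, and at least 2-fold higher for Il6 alone, compared with 3.08%.

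**Figure D4:**
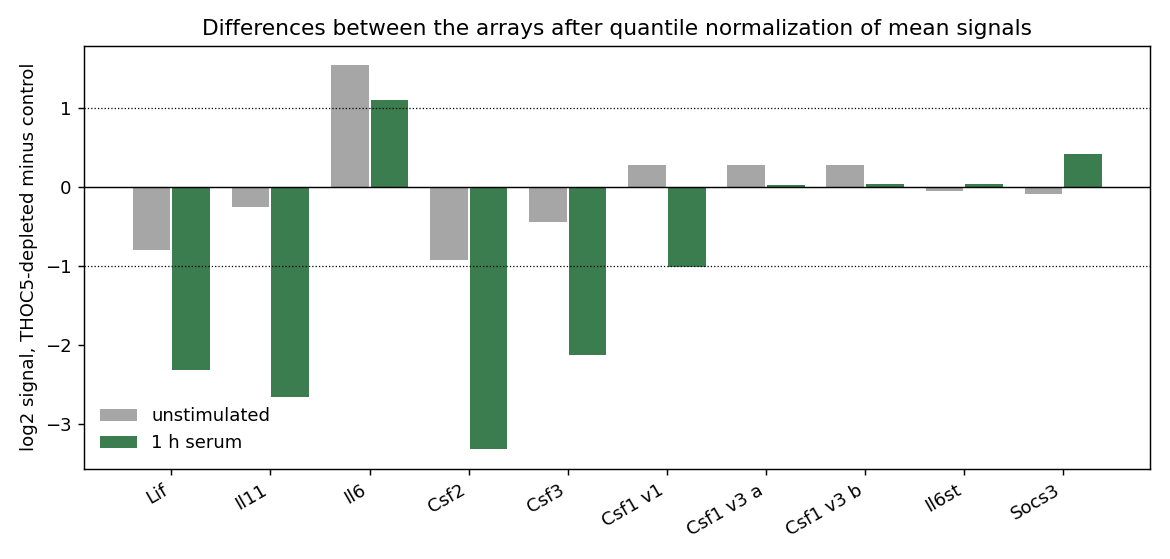
Difference of log2 signal, THOC5-depleted minus control, for each probe in unstimulated cells (grey) and after 1 h of serum (green), after quantile normalization of mean signals; dotted lines mark 2-fold, and each bar rests on 1 array per condition. The green bars of Lif, Il11, Csf2 and Csf3 reach -2.32, -2.65, -3.32 and -2.13, and both bars of Il6 are positive at 1.54 and 1.09.

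The genes whose pattern was most like that of each member induced in control cells were sought over 3 values per gene, the log2 serum ratios on both arrays and the log2 difference of the unstimulated signals. The Euclidean distance was used, among genes above background in all channels with a control Cy5 signal above 200. For Lif the nearest were Kctd11 (distance 0.46), Junb (0.60) and Dusp5 (0.68), the last 2 encoding an AP-1 subunit and an ERK phosphatase. For Il11 they were Hes1 (0.53), a transcription factor of the Notch pathway, Cul9 (0.66) and Tmem88 (0.66). For Csf3 the nearest was Clcf1 (0.35), which is itself a cytokine of the IL-6 family, followed by Snai1 (0.42) and C030046G05 (0.54).

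The variant 1 probe of Csf1 had near neighbours in LOC100046817 (0.076), Map2k3 (0.19) and Epha2 (0.20), the last 2 encoding a kinase of the p38 pathway and an ephrin receptor. Il6 had Cabyr (0.56), Lman1l (0.56) and Hmox1 (0.58), a heme-degrading enzyme induced by stress. The distances were larger for Csf2, whose nearest genes were LOC402769 (1.43), Arc (1.49) and Lif (1.63).

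The rest of the pathway was followed in 8 lists with 76 genes, of which 75 were on the array. On the control array 68 of them were tested, 10 were induced at least 2-fold (compared with 2.65% of all genes tested) and 2 were repressed at least 2-fold (compared with 1.73% of all). On the THOC5-depleted array 68 were tested, 4 were induced (compared with 0.942% of all) and 0 repressed (compared with 0.377%). Among the 67 tested on both, the ratio was at least 2-fold lower in 4, Clcf1, Cish, Junb and Timp1 (compared with 1.28% of all genes), and at least 2-fold higher in 1, Cebpd (compared with 0.964% of all genes).

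Of the other cytokines of the IL-6 family, 1 of 7 tested was induced in control cells. This was Clcf1, which signals through the CNTF receptor, with 344 and 1733 in control and 239 and 501 in THOC5-depleted cells. Its serum ratio was 5.04 in control and 2.10 in THOC5-depleted cells. Cntf, a survival factor of neurons and another bright gene of this list, had a control ratio of 1.20. None of the 6 receptor chains of the family tested moved 2-fold with serum on either array. Osmr, the receptor chain of oncostatin M, had a control ratio of 0.591 and a THOC5-depleted ratio of 0.852. Il11ra1, the receptor chain of Il11, had 0.711 and 0.907, and Il6ra, that of Il6, had 1.08 and 1.09.

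None of the 5 receptors of the colony-stimulating factors changed 2-fold either. Csf3r gave control and THOC5-depleted ratios of 1.05 and 1.00, Csf1r, the receptor for Csf1, gave 1.39 and 1.13, and Csf2rb2 gave 0.910 and 0.988. Among the 5 related growth factors of blood cells that were tested, none passed the limit. Il34, the other ligand of the Csf1 receptor, had the lowest control ratio of these, 0.509, compared with 0.852 after THOC5 depletion. The list's other bright genes, Flt3l and Kitl, had control ratios of 0.698 and 0.782.

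Of the kinases and STAT factors, 1 of 11 tested changed 2-fold, and it fell. Stat2, which carries interferon signals, fell with serum in control cells to a ratio of 0.466 and had 0.890 in THOC5-depleted cells. The brightest of the list, Ptpn11, Jak1 and Stat5b, had control ratios of 1.20, 1.00 and 0.947. Of the inhibitors, 2 of 13 were induced in control cells, and 0 of 13 after THOC5 depletion. Cish, an inhibitor of the STAT5 pathway, had ratios of 3.62 and 1.55, and Socs1, an inhibitor of JAK kinases, had 2.79 and 1.49. The direction of both was the opposite of that of their relative Socs3, whose ratio was higher in THOC5-depleted cells. The brightest of the other inhibitors, Ptpn2 and Socs7, had control ratios of 1.42 and 1.49.

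Among known STAT3 target genes, 4 of 11 tested were induced in control cells and 1 was repressed. Junb, an AP-1 subunit, rose from 296 to 3592 in control and from 209 to 982 in THOC5-depleted cells. Its ratios were 12.1 and 4.70. Myc, a driver of growth, had ratios of 3.95 and 1.98, the kinase gene Pim1 3.80 and 2.09, and Timp1, an inhibitor of matrix proteases, 2.78 and 1.18. Cebpd, a transcription factor, fell to 0.438 in control cells and had 0.897 in THOC5-depleted cells. Cebpb, the brightest of the list together with Myc and Timp1, had 1.96 and 1.45.

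Among the regulators of cytokine mRNA stability, Zfp36 was induced by nearly the same factor on both arrays. It encodes tristetraprolin, which binds AU-rich elements and hastens decay. It gave 385 and 1558 in control and 353 and 1351 in THOC5-depleted cells. Its serum ratio was 4.05 in control and 3.83 in THOC5-depleted cells, a fold reduction of 1.06. Zc3h12a, an RNase that degrades cytokine mRNAs, had ratios of 2.43 and 1.55, and Arid5a, which protects Il6 mRNA, had 2.40 and 1.40. These were the 3 of 10 induced in control cells. The brightest of the list, Elavl1, Zfp36l2 and Hnrnpd, had control ratios of 0.850, 1.20 and 0.993.

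**Figure D5:**
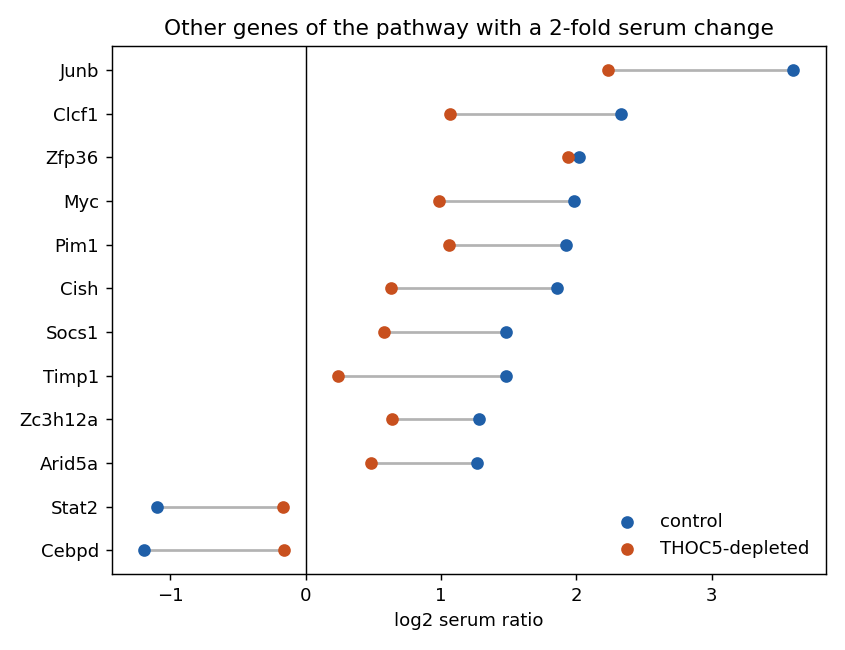
Log2 serum ratio in control (blue) and THOC5-depleted cells (orange) of the 12 genes of the pathway lists that changed at least 2-fold with serum on either array; grey lines join the values of a gene. Zfp36 has nearly the same value on both arrays (ratios 4.05 and 3.83), and the other 11 genes lie nearer to 0 in THOC5-depleted cells. All 12 passed the limit on the control array, a choice that by itself favours values nearer to 0 on the other array.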

How the data were processed

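Total RNA was measured on 2 dual-color Agilent arrays, 1 per condition, with unstimulated cells in Cy3 and stimulated cells in Cy5. The methods give 10 μM tamoxifen for 24 h, growth medium for 24 h, starvation for 24 h and then 20% serum. The authors deposited scanner output (Agilent Feature Extraction 10.7.3.1, per the labels), in which probes are placed on mm9. The deposited processed signal is, per the file headers, an intensity after background subtraction and dye normalization (linear and LOWESS) within an array, not scaled between arrays. The authors' deposited series table holds the size of the log10 ratio in most rows, lacks the sign, and served only as an alternative. This size equalled the scanner's, within 1e-06, in 85.1% of 44397 rows on the control and 86.3% on the THOC5-depleted array. All 28 member spots were equal on both arrays. The number of columns without a sample is 0.

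Outlier spots were left out, and spots of a probe were averaged on the log2 scale. A gene took its probe with the highest mean log2 signal over 4 channels. Genes well above background in at least 1 channel of an array were tested, and where only 1 channel was above background the ratio is a bound. Signals were compared between arrays after Aquantile (limma 3.58.1, R 4.3.3). Python 3.11.15, numpy 2.4.6, pandas 2.3.3 and matplotlib 3.10.9 were used, and the scripts were tested on simulated data. Probe accessions found in the reference annotation gave the names of 26412 of 35777 named probes. An mm9 annotation was not used here, so exons and untranslated regions are not given.

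All member probes are reported. A pathway gene is named if it changed at least 2-fold with serum on either array or was 1 of the 3 brightest of its list, and 3 nearest genes are named per member induced in control cells. A gene that this rule would name is not reported here. Cell type markers were named after their values were seen. The members and lists were chosen with earlier results of these data known. Alternatives were normexp (offset 50) with loess, background-subtracted signals with no dye normalization, the series table, a floor of 50, other rules for probes, outlier spots kept, spike-in centring, a common spread of log ratios, limits of 1.5-fold and 3-fold, other Cy5 limits, and other scalings between arrays. No test was made, since a condition had 1 array. Differences of culture, slide position or hybridization cannot be told apart from the condition.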

Additional observations from a re-analysis of the deposited data

Results flagged for a closer look

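The 2 overlapping variant 3 probes of Csf1 had a serum ratio on opposite sides of 1 in the 2 conditions. The first gave 1.14 in control and 0.958 in THOC5-depleted cells. The second gave 1.13 in control and 0.952 in THOC5-depleted cells. The log2 fold reductions of 0.25 and 0.24 lie within the spread of all genes, whose scaled median absolute deviation was 0.26. The difference between the conditions was not tested, as each condition had 1 array.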

How the results depend on the processing

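The count of members induced at least 2-fold in control cells was 6 and stayed between 5 and 7 under the alternatives run. The 4 members induced in THOC5-depleted cells became 7 without dye normalization, 2 at a limit of 3-fold and 6 at a limit of 1.5-fold. Without dye normalization the median log2 serum ratio of all genes was 0.82 on the control array and 0.75 on the other, and relative to these medians, an alternative chosen after seeing the data, the count was again 4. The 5 members with a ratio at least 2-fold lower in THOC5-depleted cells became 3 with the log ratios of both arrays set to 1 spread and 3 at a limit of 3-fold, and were 4 or 5 otherwise. The 3 members past the 4-fold and signal filters became 4 with a Cy5 limit of 100 or none. Of 264 values of single members under an alternative, 255 kept their direction, and no value past 2-fold changed sign. The other 9 were of Il6st and Csf1, which turned, and of Csf3, which went to 0 with a floor of 50, and their main values were under 2-fold. Many of the 264 values could not turn. Other probe rules leave a gene with 1 probe unchanged. The series table took the scanner's sign, and setting the log ratios to 1 spread keeps every sign. Without scaling, unstimulated signals of all genes were lower on the THOC5-depleted array by a median of log2 -0.26. No paired analysis was possible because each condition had 1 array. Signals near background limit Csf3, and no alternative replaces a second array.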
